A study of Mus musculus with 8 samples.

Results

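Immunoglobulin variable (V) segments are the gene pieces that encode most of the antigen-binding part of an antibody chain. Their transcripts were examined here in the livers of mice with diet-induced steatohepatitis. The members are the rows of the deposited expression table whose symbol is that of a heavy (Ighv), kappa (Igkv) or lambda (Iglv) V segment and whose mean level over all 8 libraries was at least 0.1 FPKM (fragments scaled to gene length and to library depth). Of 55335 rows, 348 carried such a symbol and 111 met the floor: 51 heavy, 57 kappa and 3 lambda segments. The level over all 8 libraries chose the members, so their presence and their mean level are no finding.

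Bulk liver RNA was sequenced from 2 groups of wild-type mice, all kept on CDAHFD, a high-fat diet that lacks choline and replaces protein by defined L-amino acids and gives a fatty, inflamed and scarring liver (nonalcoholic steatohepatitis). The RIC_hEV group (4 libraries) received, by vein, extracellular vesicles from the blood of human volunteers who had undergone remote limb ischemic conditioning, in which blood flow to a limb is interrupted for short periods. The ctr_hEV group (4 libraries) received vesicles from volunteers after a sham procedure. The question is whether liver transcripts differ with the kind of vesicle injected. The sources used here do not give strain, sex, age, vesicle dose, time of harvest or animal identity, so the p-values measure the spread between libraries, which may in part be technical.

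A B cell makes 1 heavy chain and 1 light chain, kappa or lambda, by joining a V segment to short D and J segments next to a constant region. Each B cell clone and its plasma cell descendants therefore use their own heavy and light V segments, and plasma cells transcribe them at a very high rate. In a piece of liver, V transcripts come from the B and plasma cells it holds, and the number of different segments in use is a coarse view of how many clones contribute. In bulk tissue, fewer cells of a type and less RNA per cell cannot be told apart.

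Depth was estimated from the worth of 1 fragment among low genes, because read counts were not used here. It came to 19300000 to 28400000 fragments in RIC_hEV and 23700000 to 28800000 in ctr_hEV. A single fragment over 350 bases, about the length of a V segment, was then worth 0.101 to 0.148 FPKM in RIC_hEV and 0.0993 to 0.121 FPKM in ctr_hEV, so the floor of 0.1 FPKM stands for about 1 fragment per library. The first principal component was taken over genes averaging at least 1 FPKM and held 44.4% of their variance. On it, ctr_hEV 1 (-36.1) and ctr_hEV 3 (-23.3) lay apart from the other libraries, which ran from -2.36 to 16.3. Within its group, ctr_hEV 1 had the lowest V sum and ctr_hEV 3 the highest. The hepatocyte marker Alb averaged 22810 ± 2431 FPKM in RIC_hEV and 22984 ± 4608 FPKM in ctr_hEV (SD, n = 4 each). Alb changed least of the 6 hepatocyte genes listed, which all had a log2 change above 0 (median 0.19) and are described further below.

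Sequences of the segments on which the results turn come from the GENCODE M21 transcripts (GRCm38, the mm10 build), 5′ to 3′ in the sense of the gene. Igkv3-4 and Igkv10-94 were the 2 members higher in RIC_hEV past the threshold of the test (limma, Benjamini-Hochberg adjusted p under 0.05), which 0.0168% of all genes fitted passed upward. Each has a close relative. The last 90 bases of each pair are therefore shown, with capitals at the bases in which the relative differs. Igkv3-4 lies at chr6:70671788-70672377 on the plus strand, with the printed end at chr6:70672288-70672377, and Igkv3-3 ends at chr6:70687445-70687534 on the plus strand. Igkv10-94 ends at chr6:68704508-68704597 and Igkv10-96 at chr6:68631963-68632052, both on the minus strand.
Igkv3-4: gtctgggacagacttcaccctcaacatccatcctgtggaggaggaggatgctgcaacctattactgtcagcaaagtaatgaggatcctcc
Igkv3-3: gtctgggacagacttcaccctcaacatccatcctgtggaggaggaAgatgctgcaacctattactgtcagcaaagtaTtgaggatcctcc
Igkv10-94: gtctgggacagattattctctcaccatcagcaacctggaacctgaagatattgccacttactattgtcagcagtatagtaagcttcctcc
Igkv10-96: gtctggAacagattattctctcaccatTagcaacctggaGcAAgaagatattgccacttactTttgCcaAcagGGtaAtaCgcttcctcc
Igkv3-3 differed from Igkv3-4 at 2 of these 90 bases and matched 93.9% of the whole transcript. Igkv10-96 differed from Igkv10-94 at 12 of the 90 and matched 92.2% of the whole transcript.

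Further segments led a library or stood out in a locus, and their last 60 bases are shown because this end reaches into the third complementarity-determining region, the part of the chain most variable between clones. Capitals mark the last in-frame cysteine codon. The V bases printed after it belong to this region, and the join with D or J comes at the end of the segment. All lie on the minus strand, at chr6:70143593-70143652 (Igkv8-28), chr6:70260409-70260468 (Igkv6-23), chr12:114391712-114391771 (Ighv6-3), chr12:114288152-114288211 (Ighv3-6), chr12:115912344-115912403 (Ighv1-80), chr12:114583569-114583628 (Ighv1-9) and chr16:19085017-19085076 (Iglv1).
Igkv8-28: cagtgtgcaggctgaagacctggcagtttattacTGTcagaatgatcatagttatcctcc
Igkv6-23: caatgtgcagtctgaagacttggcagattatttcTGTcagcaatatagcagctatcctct
Ighv6-3: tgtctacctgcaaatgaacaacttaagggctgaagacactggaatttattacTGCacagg
Ighv3-6: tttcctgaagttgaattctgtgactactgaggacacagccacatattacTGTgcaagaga
Ighv1-80: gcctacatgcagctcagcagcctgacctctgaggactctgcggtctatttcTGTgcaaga
Ighv1-9: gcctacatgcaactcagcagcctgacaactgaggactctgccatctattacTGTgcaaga
Iglv1: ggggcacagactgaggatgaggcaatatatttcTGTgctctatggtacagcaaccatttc

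Close copies limit what a single segment's level means. A median of 48.3% of the 31-base stretches of a member also occurred in another annotated gene, 45.2% for heavy and 53.5% for kappa segments, and 53 of the 111 members shared more than 50%. Only 4 members shared none, namely Igkv15-103, Igkv19-93, Igkv5-48 and Iglv3. The sources used here do not say how fragments that match several genes were counted, so single levels are uncertain for members with high sharing. Sums over a locus are less exposed only if such fragments were kept within the locus, which is not known. If they were left out, the sums lose them too. Somatic hypermutation and the reference strain can also move fragments between copies, and this was not tested.

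Of the 348 V rows, 166 were listed at 0 in all 8 libraries, 71 lay above 0 but under the floor, and 111 were members. The annotation calls 128 of the 348 rows pseudogenes, and none of these 128 was a member. Their summed level was at most 0.429 FPKM in any library, in RIC_hEV 4. Of the members, 82 reached the floor in the means of both groups, 24 in the RIC_hEV mean alone and 5 in the ctr_hEV mean alone. Low levels were the rule: 15 members averaged at least 1 FPKM and 96 less. The median member averaged 0.341 FPKM for heavy, 0.419 for kappa and 0.310 for lambda.

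Summed over the members, V transcript was higher in every RIC_hEV library than in any ctr_hEV library. The sum was 78.6, 75.0, 84.0 and 97.5 FPKM in RIC_hEV 1 to 4, against 21, 37.2, 42.4 and 34.2 FPKM in ctr_hEV 1 to 4. The means were 83.8 ± 9.86 FPKM in RIC_hEV and 33.7 ± 9.11 FPKM in ctr_hEV (SD, n = 4 each), a ratio of 2.49. These sums rested on an estimated 555 to 872 fragments in RIC_hEV and 213 to 395 in ctr_hEV. Taking all V symbols without the floor gave 86.7 ± 9.88 FPKM in RIC_hEV and 36.2 ± 9.88 FPKM in ctr_hEV. The 2 V symbols that stood on more than 1 row entered this sum once each. Without ctr_hEV 1 and 3, the libraries apart on the first component, the log2 ratio of the sums was 1.23, against 1.31 with them. A sum over members chosen with the group difference known gets no test.

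The heavy and kappa loci differed by similar ratios. Heavy segments summed to 28.6, 26.8, 31.5 and 41.1 FPKM in RIC_hEV 1 to 4, against 7.82, 13.4, 16.4 and 13.2 FPKM in ctr_hEV 1 to 4, a ratio of means of 2.52. Kappa segments summed to 48.3, 45.8, 50.1 and 54.2 FPKM in RIC_hEV, against 12.8, 22.1, 24.0 and 19.3 FPKM in ctr_hEV, a ratio of 2.54. In both loci the groups did not overlap, and ctr_hEV 1 was the lowest library. Lambda segments, which the mouse uses sparingly, summed to 1.71, 2.33, 2.36 and 2.14 FPKM in RIC_hEV, against 0.402, 1.71, 1.97 and 1.61 FPKM in ctr_hEV. The lambda ratio of means was 1.5 and the groups overlapped: RIC_hEV 1 lay below ctr_hEV 2 and 3.

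**Figure D1:**
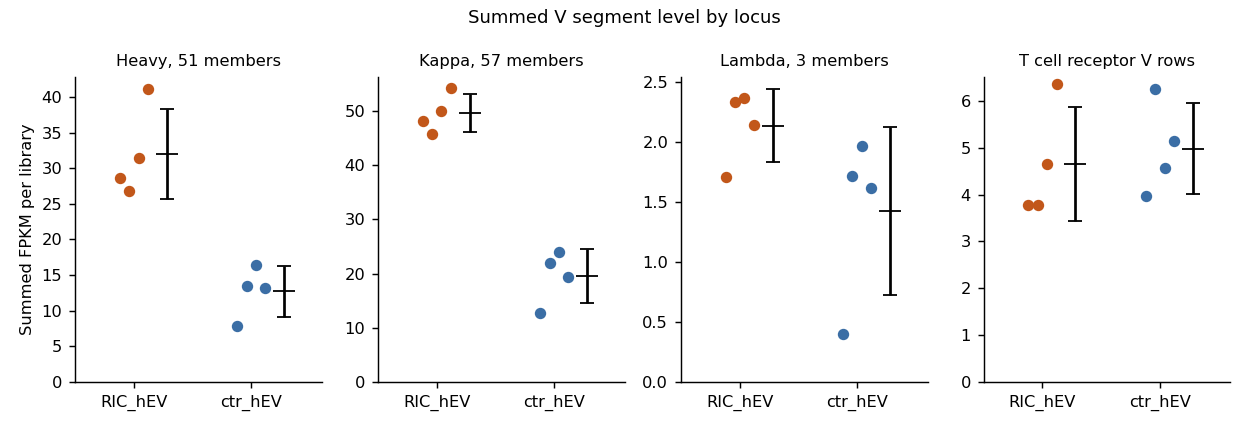
Summed FPKM of the V segments of each locus, and of the T cell receptor V rows, in each library (points), with mean and SD (bars, n = 4 per group). Heavy and kappa sums in RIC_hEV lie above every ctr_hEV library, lambda sums overlap, and T cell receptor V sums overlap at 3.78 to 6.36 FPKM in RIC_hEV and 3.97 to 6.25 FPKM in ctr_hEV.

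The make-up by locus differed little. Heavy segments took 38.0 ± 2.90% of the V sum in RIC_hEV and 37.7 ± 1.24% in ctr_hEV, and kappa segments took 59.5 ± 2.67% in RIC_hEV and 58.4 ± 2.07% in ctr_hEV (SD, n = 4 each). Light over heavy sums gave 1.64 ± 0.190 in RIC_hEV and 1.66 ± 0.0882 in ctr_hEV. All 3 differences were smaller than the spread between libraries. The lambda share was 2.17, 3.11, 2.81 and 2.2% in RIC_hEV, against 1.91, 4.60, 4.64 and 4.72% in ctr_hEV. Thus ctr_hEV 2, 3 and 4 lay above every RIC_hEV library in lambda share, while ctr_hEV 1 lay below them all. The kappa to lambda ratio accordingly was 28.3, 19.7, 21.2 and 25.3 in RIC_hEV, against 31.8, 12.9, 12.2 and 12 in ctr_hEV. The lambda sum of ctr_hEV 1 stood for an estimated 4.30 fragments, too few to place its share.

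The RIC_hEV libraries listed more segments above 0. They listed 94, 88, 95 and 90 of the 111 members, against 62, 76, 80 and 80 in ctr_hEV, with no overlap between the groups. Heavy segments above 0 numbered 39 to 44 in RIC_hEV and 27 to 35 in ctr_hEV, kappa segments 46 to 50 in RIC_hEV and 33 to 44 in ctr_hEV, and lambda segments 2 or 3 in both. The gap was wider at higher levels. At least 0.5 FPKM was reached by 42 to 58 segments in RIC_hEV and 14 to 34 in ctr_hEV. At least 1 FPKM was reached by 25, 23, 27 and 37 segments in RIC_hEV, against 1, 8, 12 and 5 in ctr_hEV. These counts cover members, of which 24 reached the floor in the RIC_hEV mean alone and 5 in the ctr_hEV mean alone. That choice of rows can favour RIC_hEV. Over all V segments without the floor, 103 to 122 were above 0 in RIC_hEV and 72 to 100 in ctr_hEV.

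The number of segments seen depends on how many fragments fall on them. Thinned to 210 estimated V fragments in each library, a step added after seeing the data, 73.1, 68.6, 69.8 and 67.0 segments were expected in RIC_hEV, against 60.7, 65.8, 68.3 and 69.8 in ctr_hEV. The groups then overlapped, and the difference of their means shrank to 3.50 segments, against 17.2 as listed. The means were 69.6 ± 2.58 segments in RIC_hEV and 66.1 ± 3.99 in ctr_hEV (SD, n = 4 each). The thinning used estimated fragments and the members alone. It therefore cannot decide whether the number of segments differs at equal numbers of V fragments.

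The signal was spread over many segments in every library. The highest segments that together carried 50% of the V sum numbered 20, 15, 18 and 18 in RIC_hEV and 16, 17, 19 and 19 in ctr_hEV. For 90% it took 62, 57, 58 and 54 segments in RIC_hEV, against 45, 51, 53 and 54 in ctr_hEV. Within the heavy locus, 7 to 10 segments carried 50% of the sum in either group. Within the kappa locus, 8 to 10 did so in RIC_hEV and 9 to 11 in ctr_hEV. The effective number of segments (the inverse Simpson index, the number of equally used segments that would give the same evenness) was 47.6, 38.3, 42.4 and 45.2 in RIC_hEV and 40.9, 46.1, 50.8 and 49.9 in ctr_hEV. Both groups overlapped in these measures of evenness.

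**Figure D2:**
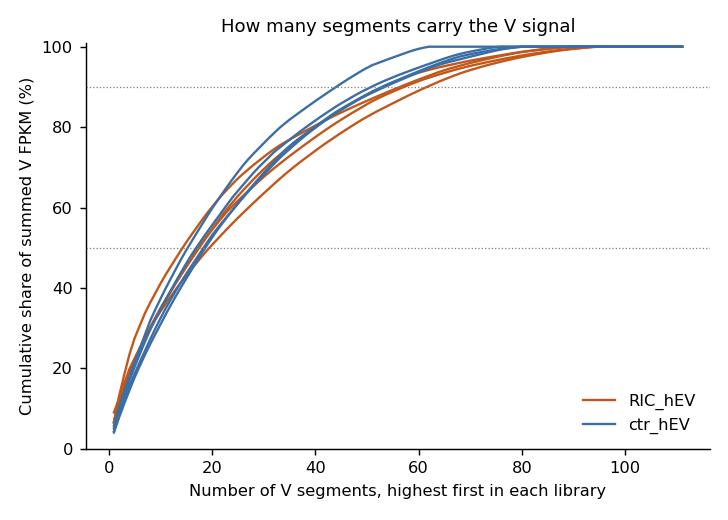
Cumulative share of the summed V FPKM (%) against the number of segments, ordered from the highest down within each library. Lines are libraries; dotted lines mark 50% and 90%, the 8 curves run close together, and 15 to 20 segments in RIC_hEV and 16 to 19 in ctr_hEV reach 50%.

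The segment that led differed between libraries. Igkv8-28 led RIC_hEV 1, Igkv6-23 led RIC_hEV 2, and Igkv3-4 led RIC_hEV 3 and 4. In ctr_hEV, Igkv6-23, Igkv10-96, Ighv3-6 and Iglv1 led libraries 1 to 4 in that order. The leading segment took 6.62, 6.69, 9.04 and 6.46% of the V sum in RIC_hEV, against 5.71, 5.12, 4.06 and 4.40% in ctr_hEV, so no library was carried by 1 segment. The groups did not overlap in this share. Across the lists of the 10 highest segments of each library, 38 segments appeared, 20 of them in 1 library only and 0 in all 8. Igkv3-4 and Igkv1-110 were among the 10 highest in every RIC_hEV library, and Igkv6-15 in every ctr_hEV library.

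On the log2(FPKM + 1) scale, the largest change among the members was that of Igkv3-4. With a pseudocount of 0.1 in place of 1, Ighv1-9 changed more (log2 change 3.65, against 3.20 for Igkv3-4). Igkv3-4 is a kappa segment near the J end of its locus (the 4th of 160 kappa rows, 50.2 kb from the nearest J segment). It was listed at 4.49, 4.81, 7.59 and 6.30 FPKM in RIC_hEV 1 to 4, against 0.276, 0.472, 1.58 and 0.330 FPKM in ctr_hEV 1 to 4. It was thus high in all 4 RIC_hEV libraries, and ctr_hEV 3 was the highest of its group. The means were 5.80 ± 1.43 FPKM in RIC_hEV and 0.666 ± 0.618 FPKM in ctr_hEV (SD, n = 4 each), and the log2 change on the log2(FPKM + 1) scale was 2.07 (SE 0.23), with a limma adjusted p of 0.0405 over all genes fitted. These levels stood for an estimated 34.8 to 77.5 fragments in RIC_hEV and 2.74 to 13.5 in ctr_hEV. Of the 31-base stretches of Igkv3-4, 55.2% also occur elsewhere, 33.0% in Igkv3-3, its pair printed above. Igkv3-3 was listed at 0 in 7 libraries and at 0.0134 FPKM in RIC_hEV 3, so the deposited table gives nearly everything of this pair to Igkv3-4.

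Igkv10-94, a kappa segment 2018 kb from J, was the other member past the threshold. It was listed at 0.974, 0.528, 0.885 and 0.726 FPKM in RIC_hEV, against 0, 0.0774, 0.0942 and 0.0668 FPKM in ctr_hEV. All 4 RIC_hEV libraries lay above all 4 ctr_hEV libraries. The log2 change was 0.74 (SE 0.09, limma adjusted p = 0.0426), on an estimated 3.68 to 8.71 fragments in RIC_hEV and 0 to 0.774 in ctr_hEV. Its relative Igkv10-96, with which it shares 46.7% of its stretches, had 0.976, 0.754, 1.68 and 5.11 FPKM in RIC_hEV, against 0.425, 1.91, 1.39 and 1.41 FPKM in ctr_hEV. The groups overlapped for Igkv10-96, and RIC_hEV 4 alone stood high.

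Both calls were lost without some single libraries, while the changes stayed of similar size. With each library left out in turn, the log2 change was 1.95 to 2.30 for Igkv3-4 and 0.69 to 0.81 for Igkv10-94. The limma adjusted p of Igkv3-4 was 0.121, 0.0581, 0.101 and 0.162 without RIC_hEV 1, 2, 3 and 4 in turn, and 0.0696 and 0.0685 without ctr_hEV 1 and 2. It stayed under the threshold without ctr_hEV 3 (0.00184) and without ctr_hEV 4 (0.0252). Without ctr_hEV 1 and 3 together it was 0.0158. That of Igkv10-94 was 0.171, 0.160 and 0.162 without RIC_hEV 1, 3 and 4, and 0.118, 0.0890 and 0.165 without ctr_hEV 1, 2 and 3. It stayed under the threshold without RIC_hEV 2 (0.0167) and without ctr_hEV 4 (0.0331). Without ctr_hEV 1 and 3 together it was 0.284.

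Other kappa segments were high in several RIC_hEV libraries without passing. Igkv15-103, which shares no 31-base stretch with another gene, had 1.75, 1.51, 2.63 and 3.27 FPKM in RIC_hEV, against 0.193, 1.177, 0.9 and 0.655 FPKM in ctr_hEV. Igkv1-110 had 1.92, 1.79, 2.58 and 2.30 FPKM in RIC_hEV, against 0, 1.23, 0.783 and 0.411 FPKM in ctr_hEV. The groups overlapped for neither, and the log2 changes were 0.93 (SE 0.21) for Igkv15-103 and 1.03 (SE 0.22) for Igkv1-110, each with a limma adjusted p of 0.384. Of the stretches of Igkv1-110, 63.6% recur elsewhere, nearly all in Igkv1-117, which averaged 2 ± 1.15 FPKM in RIC_hEV and 0.674 ± 0.477 FPKM in ctr_hEV. Igkv4-55 averaged 1.09 ± 0.683 FPKM in RIC_hEV and 0.101 ± 0.119 FPKM in ctr_hEV, again with no overlap.

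In some kappa segments the level came from 1 or 2 libraries. Igkv8-28 had 5.20, 3.99, 0.226 and 1.06 FPKM in RIC_hEV, against 0, 0.906, 0.407 and 0.524 FPKM in ctr_hEV. Igkv6-23 had 1.41, 5.02, 0.704 and 1.85 FPKM in RIC_hEV, against 1.20, 0.684, 0.288 and 0.995 FPKM in ctr_hEV. In both, RIC_hEV 3 lay within the ctr_hEV range while another RIC_hEV library was several times higher. Igkv6-15 was steadier, with 2.83, 0.822, 2.83 and 2.12 FPKM in RIC_hEV, against 0.723, 1.59, 1.05 and 1.24 FPKM in ctr_hEV, and the groups overlapped. Igkv8-30 averaged 1.37 ± 0.964 FPKM in RIC_hEV and 0.752 ± 0.292 FPKM in ctr_hEV, and Igkv3-2 averaged 1.34 ± 0.820 FPKM in RIC_hEV and 0.454 ± 0.172 FPKM in ctr_hEV. Over all members, 18 had more than 50% of their summed 8-library level in 1 library.

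Among heavy segments, Ighv1-9 had the largest log2 change. It was listed at 1.21, 3.03, 1.62 and 2.54 FPKM in RIC_hEV, against 0, 0, 0 and 0.652 FPKM in ctr_hEV. The groups did not overlap, the log2 change was 1.41 (SE 0.22), and it did not pass (limma adjusted p = 0.169). Without ctr_hEV 4, the only ctr_hEV library in which it was listed above 0, it passed (adjusted p = 0.0252). Ighv6-3 followed with 3.06, 3.77, 0.530 and 1.5 FPKM in RIC_hEV, against 0.447, 0.559, 0 and 0.185 FPKM in ctr_hEV, overlapping through RIC_hEV 3.

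Ighv3-6 and Ighv1-80 were the heavy segments with the highest mean levels. Ighv3-6 had 1.26, 1.56, 2.94 and 2.50 FPKM in RIC_hEV, against 0.548, 0.654, 1.72 and 0.207 FPKM in ctr_hEV. Ighv1-80 had 2.10, 0.359, 2.39 and 3.02 FPKM in RIC_hEV, against 0.1, 0.197, 1.21 and 0.836 FPKM in ctr_hEV. The groups overlapped in both, through ctr_hEV 3 for Ighv3-6 and through RIC_hEV 2 for Ighv1-80. Ighv8-8 averaged 1.78 ± 0.542 FPKM in RIC_hEV and 0.643 ± 0.433 FPKM in ctr_hEV, and Ighv1-72 averaged 1.16 ± 0.524 FPKM in RIC_hEV and 0.317 ± 0.0804 FPKM in ctr_hEV. Neither overlapped between the groups, although 98.1% of the stretches of Ighv1-72 also occur elsewhere.

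The remaining heavy segments of the 10 highest overlapped. Ighv1-64 averaged 1.24 ± 0.788 FPKM in RIC_hEV and 0.561 ± 0.557 FPKM in ctr_hEV, and Ighv9-3 averaged 0.884 ± 0.945 FPKM in RIC_hEV and 0.377 ± 0.272 FPKM in ctr_hEV. Ighv1-26 and Ighv1-81 had log2 changes of 0.15 and 0.10, smaller than their standard errors of 0.24 and 0.20. Other heavy segments led a single library. Ighv1-50 led the heavy locus of ctr_hEV 1 at 0.996 FPKM and was listed at 0 in RIC_hEV 1 and 4 and in ctr_hEV 4. Ighv5-4 led that of ctr_hEV 2 at 0.980 FPKM.

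None of the 3 lambda segments passed. Iglv1, the leading lambda segment of all 8 libraries, had 1.02, 1.79, 1.68 and 1.5 FPKM in RIC_hEV, against 0.353, 1.39, 0.891 and 1.5 FPKM in ctr_hEV (log2 change 0.33, SE 0.19, limma adjusted p = 0.468). Iglv2, which shares 36.5% of its stretches with Iglv1, was listed above 0 in 2 RIC_hEV libraries, at 0.685 FPKM in RIC_hEV 1 and 0.0704 FPKM in RIC_hEV 4, and in all 4 ctr_hEV libraries at 0.0494 to 0.395 FPKM. Iglv3 was listed at 0, 0.539, 0.687 and 0.576 FPKM in RIC_hEV, against 0, 0, 0.681 and 0 FPKM in ctr_hEV. All 3 overlapped between the groups.

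**Figure D3:**
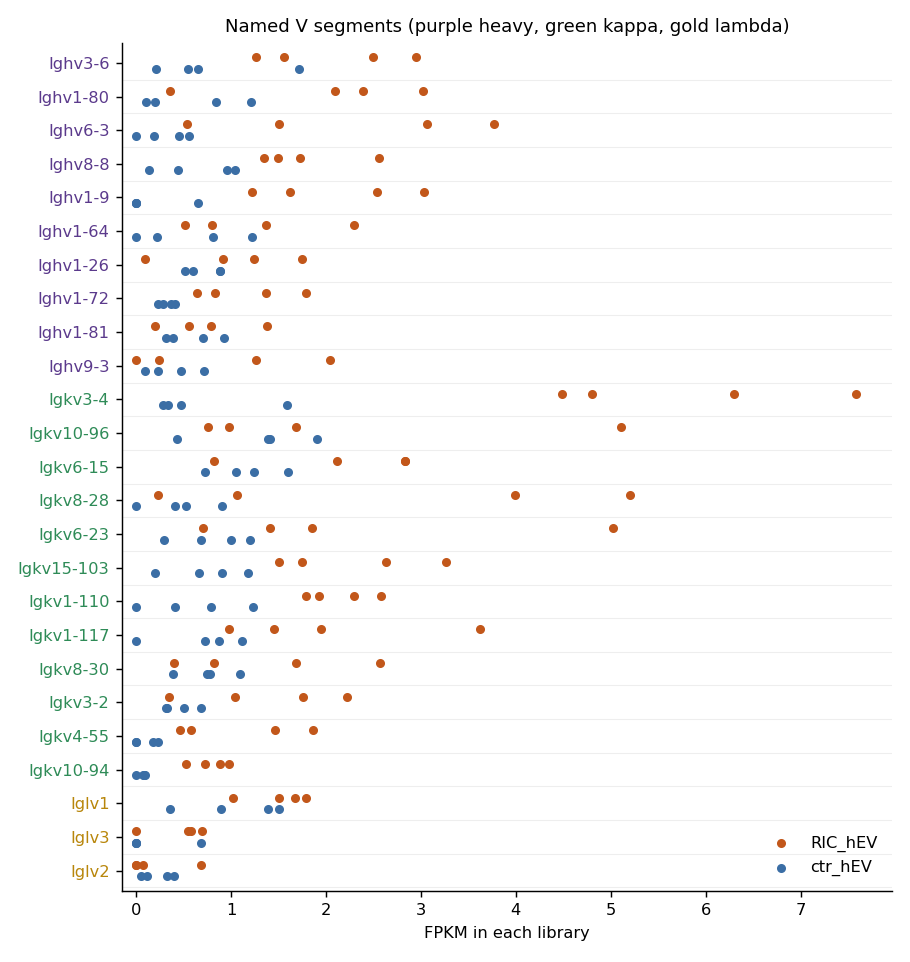
FPKM of 25 V segments in each library (points, RIC_hEV drawn above ctr_hEV in each row), grouped by heavy, kappa and lambda locus. Igkv3-4 stands apart at 4.49 to 7.59 FPKM in RIC_hEV, while Igkv8-28, Igkv6-23 and Igkv10-96 reach 5.20, 5.02 and 5.11 FPKM, each in a different RIC_hEV library.

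Against all 17875 genes fitted, the members' counts read as follows. Of the 111 members, 2 passed the threshold upward, against 3 (0.0168%) of all genes, and 0 passed downward, against 3 (0.0168%) of all genes. In either direction 0.0336% of all genes passed. At an unadjusted limma p under 0.05, 36 members were higher, against 2.32% of all genes, and 2 (Ighv3-1 and Ighv7-3) were lower, against 9.83% of all genes. The groups did not overlap, with RIC_hEV higher, in 15 members (9 heavy and 6 kappa), against 1.15% of all genes, and with RIC_hEV lower in 0 members, against 4.63% of all genes. The log2 change was above 0 for 92 members and below 0 for 19, while 28.2% of all genes lay above 0. The median log2 change was 0.30 for the members and -0.09 for all genes.

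These counts describe the members and carry no test, since the set was proposed with the group difference known and 24 members reached the floor through the RIC_hEV mean alone. With log2 values centred on the median of each library, all genes at an unadjusted p under 0.05 split into 1369 higher and 568 lower, against 414 and 1758 as deposited. The members then split into 51 higher and 0 lower. The library in which a member was highest was of RIC_hEV for 91 members and of ctr_hEV for 20, and RIC_hEV 4 alone held the maximum of 34.

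**Figure D4:**
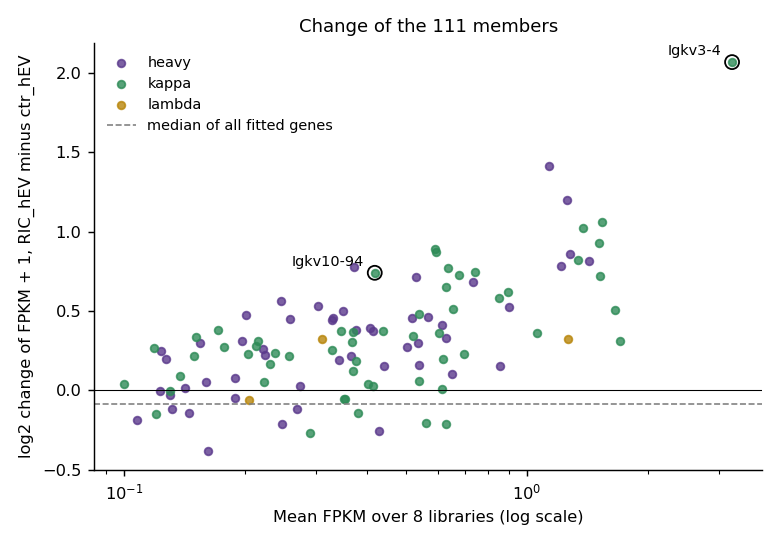
Log2 change of FPKM + 1, RIC_hEV minus ctr_hEV, against the mean FPKM over 8 libraries (log scale) for the 111 members; rings mark Igkv3-4 and Igkv10-94, which passed. Most points lie above 0 and above the median of all fitted genes (dashed, -0.09), and Igkv3-4 lies farthest from both at 2.07.

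Few members were seen in every library. Listed above 0 in all 8 libraries were 24 members, in all 4 RIC_hEV libraries 60, and in all 4 ctr_hEV libraries 31. Above 0 in RIC_hEV libraries alone were 6 (Ighv1-85, Ighv1-75, Ighv5-6, Igkv5-45, Igkv1-133 and Igkv4-63), named here after their values were seen. Ighv1-85 had 1.11, 0.420, 1.04 and 0.410 FPKM in RIC_hEV and was listed at 0 in every ctr_hEV library (limma adjusted p = 0.281, and under the threshold with a pseudocount of 0.1). The reverse held for 1 member, Ighv3-1, which was listed at 0 in every RIC_hEV library and at 0, 0.379, 0.651 and 0.259 FPKM in ctr_hEV 1 to 4. The 6 reached the floor through the RIC_hEV mean alone, and Ighv3-1 through the ctr_hEV mean alone. The choice of rows thus shapes both counts, which are no support for a difference. The share of such genes over all genes fitted was not counted. With 1 fragment worth about 0.1 FPKM, absence cannot be read from a 0.

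At the floor, the members just inside were Igkv4-63 (0.118 FPKM over all 8 libraries), Ighv7-3 (0.107 FPKM) and Igkv6-29 (0.1 FPKM). The segments just outside were Igkv9-124 (0.0970 FPKM), Igkv4-68 (0.0934 FPKM) and Ighv1-36 (0.0897 FPKM). Ighv7-3 was listed at 0.142 FPKM in RIC_hEV 3 and at 0 in the other RIC_hEV libraries, against 0.1 to 0.310 FPKM in ctr_hEV, and Igkv9-124 was listed at 0 in all of RIC_hEV and up to 0.444 FPKM in ctr_hEV.

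By family, the Ighv1 segments, the largest mouse heavy family, summed to 17.3 ± 3.62 FPKM in RIC_hEV and 6.95 ± 1.61 FPKM in ctr_hEV over 29 members, and took 20.6% of the V sum in both groups. The Igkv3 family, which holds Igkv3-4, summed to 9.15 ± 1.79 FPKM in RIC_hEV and 2.26 ± 1.28 FPKM in ctr_hEV, or 10.9% of the V sum in RIC_hEV and 6.71% in ctr_hEV. Igkv8 summed to 7.48 ± 1.39 FPKM in RIC_hEV and 2.16 ± 0.726 FPKM in ctr_hEV, and Igkv1 to 5.68 ± 0.535 FPKM in RIC_hEV and 1.76 ± 0.666 FPKM in ctr_hEV. Over the 30 families, the groups did not overlap in 9 and overlapped in 21. The 9 were all higher in RIC_hEV (Ighv1, Ighv8, Igkv1, Igkv3, Igkv4, Igkv5, Igkv6, Igkv8 and Igkv15). Over single genes fitted, the groups did not overlap in 1.15% with RIC_hEV higher and in 4.63% with RIC_hEV lower. No such share was counted for sums of genes. Families are parts of the V sum and no separate support for its difference. Of the members, 24 reached the floor in the RIC_hEV mean alone and 5 in the ctr_hEV mean alone. Igkv15 holds 1 member, and Igkv3-4 made up 5.80 of the 9.15 FPKM of Igkv3 in RIC_hEV. The ratio of the group means was above 1 in 26 families, above 2 in 18 and below 1 in 4. Ighv6, a family of 1 member, had the highest ratio at 7.44, and Ighv7, with 2 members, the lowest at 0.292, both with overlap. Igkv13 summed to 0.975 ± 0.449 FPKM in RIC_hEV and 1 ± 0.677 FPKM in ctr_hEV, and Igkv14 to 0.846 ± 0.836 FPKM in RIC_hEV and 0.871 ± 0.310 FPKM in ctr_hEV, each over 2 members.

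Position along the locus differed little between the groups. The rows of each locus were cut into 3 stretches by gene order. The kappa stretch nearest J carried 45.9 to 60.5% of the kappa sum in RIC_hEV and 44.3 to 55.3% in ctr_hEV. The heavy stretch farthest from J carried 41.4 to 49.2% of the heavy sum in RIC_hEV and 33.2 to 50.2% in ctr_hEV. The groups overlapped in both.

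Leaving Igkv3-4 out, a step added after seeing the data, did not remove the difference between the sums. The sum over the other members was 78.0 ± 9.17 FPKM in RIC_hEV and 33.0 ± 8.68 FPKM in ctr_hEV, a ratio of 2.36. The kappa sum without it was 43.8 ± 2.96 FPKM in RIC_hEV and 18.9 ± 4.49 FPKM in ctr_hEV, a ratio of 2.32, with no overlap.

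Heavy and kappa V sums stood in similar ratios to the constant regions of their locus in both groups. Igkc, the single kappa constant gene, had 46.1, 37.4, 47.0 and 49.2 FPKM in RIC_hEV, against 11, 21.9, 22.2 and 20.3 FPKM in ctr_hEV (limma adjusted p = 0.214). The kappa V sum divided by Igkc was 1.05, 1.23, 1.07 and 1.103 in RIC_hEV and 1.16, 1.01, 1.083 and 0.953 in ctr_hEV. The heavy V sum divided by the summed heavy constant genes was 0.847, 1.27, 1.05 and 1.29 in RIC_hEV and 0.958, 1.07, 1.13 and 1.42 in ctr_hEV. The groups overlapped in both ratios. The lambda V sum divided by the summed lambda constant genes was 0.927, 0.951, 0.685 and 0.889 in RIC_hEV and 0.504, 1.26, 1.15 and 1.904 in ctr_hEV. These ratios overlapped too, with a wide spread in ctr_hEV. The lambda constant genes summed to 2.54 ± 0.669 FPKM in RIC_hEV and 1.2 ± 0.439 FPKM in ctr_hEV, without overlap, unlike the lambda V sum. V and constant exons sit on the same transcripts, so the constant genes are no independent measure of the same difference.

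**Figure D5:**
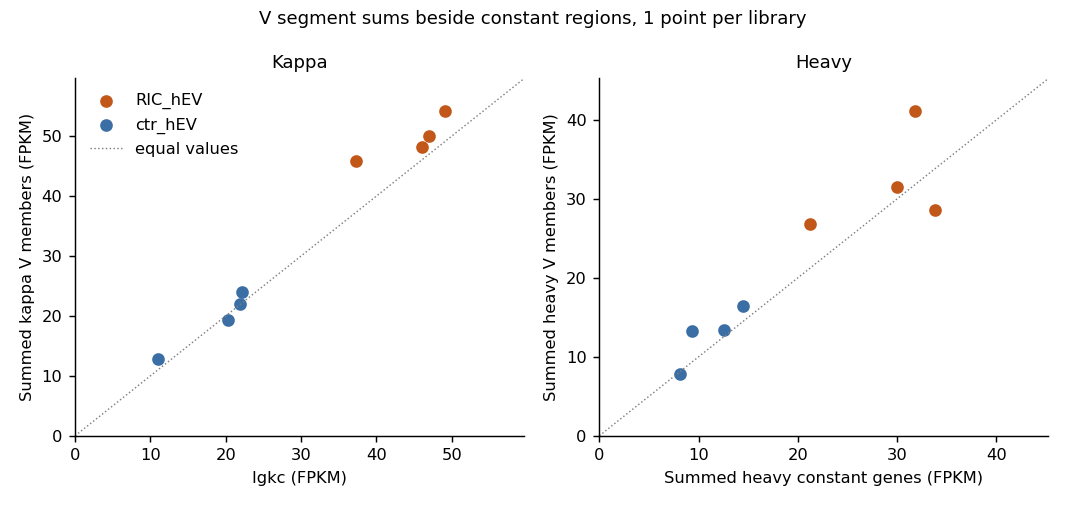
Summed V FPKM of the kappa members against Igkc, and of the heavy members against the summed heavy constant genes, 1 point per library; the dotted line marks equal values. RIC_hEV libraries lie at higher values on both axes, and kappa points stay near the line, with ratios of 1.05 to 1.23 in RIC_hEV and 0.953 to 1.16 in ctr_hEV.

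Of 12 constant region genes, 11 were fitted, with a log2 change above 0 in 9 and below 0 in 2. Over all genes, 28.2% lay above 0. The groups did not overlap, with RIC_hEV higher, in 3 (Ighg2c, Igkc and Iglc2), against 1.15% of all genes. The threshold was passed upward by 1 gene and downward by 0, each against 0.0168% of all genes. That gene was Ighg2c, the constant region of IgG2c, at 18 ± 3.94 FPKM in RIC_hEV and 3.73 ± 1.68 FPKM in ctr_hEV (log2 change 2.05, limma adjusted p = 0.0426). Ighm, the constant region of IgM, averaged 2.96 ± 0.470 FPKM in RIC_hEV and 2.22 ± 0.449 FPKM in ctr_hEV, and Ighg1, that of IgG1, averaged 0.265 ± 0.411 FPKM in RIC_hEV and 0.762 ± 0.351 FPKM in ctr_hEV, both overlapping. The heavy constant sum was 29.2 ± 5.57 FPKM in RIC_hEV and 11.1 ± 2.91 FPKM in ctr_hEV, of which Ighg2c made up the larger part in RIC_hEV.

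No marker of B cells or plasma cells passed. Of 10 B cell genes, 5 were fitted and 0 passed in either direction, and their summed level was 1.64 to 2.39 FPKM in RIC_hEV and 1.73 to 3 FPKM in ctr_hEV. Cd79a, part of the B cell receptor, averaged 0.319 ± 0.121 FPKM in RIC_hEV and 0.318 ± 0.0968 FPKM in ctr_hEV. Of 12 genes of plasma cells and antibody secretion, 10 were fitted and 0 passed, and their sum was 96.1 to 118 FPKM in RIC_hEV and 110 to 148 FPKM in ctr_hEV, most of it from genes that hepatocytes and other liver cells also express, such as Sdc1, Txndc5 and Xbp1.

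Within that list, Jchain, which joins polymeric IgA and IgM and is made by plasma cells, had 3.52, 2.89, 2.25 and 3.47 FPKM in RIC_hEV, against 0.807, 1.75, 1.44 and 1.25 FPKM in ctr_hEV. Its groups did not overlap and it did not pass (log2 change 0.81, SE 0.16, limma adjusted p = 0.290). Mzb1, a chaperone of antibody assembly, averaged 0.519 ± 0.180 FPKM in RIC_hEV and 0.246 ± 0.195 FPKM in ctr_hEV, overlapping. Prdm1 and Xbp1, transcription factors of plasma cell fate, lay lower in every RIC_hEV library than in any ctr_hEV library and did not pass (limma adjusted p = 0.409 and 0.4). Tnfrsf17, a survival receptor of plasma cells, was listed at 0 in 7 libraries and at 0.0514 FPKM in ctr_hEV 3. The part of cell number in the V sums was not tested.

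Most genes of V(D)J recombination and early B cells lay under the floor. Rag1, Rag2, Vpreb2 and Igll1 were listed at 0 in all 8 libraries. Of the 8 listed genes 2 were fitted and 0 passed. Of 6 germinal centre and class switch genes, 4 were fitted and 0 passed. Of 9 genes for survival and homing of plasma cells, 7 were fitted and 0 passed. Their sum was 28.6 to 34.7 FPKM in RIC_hEV and 35.0 to 44.6 FPKM in ctr_hEV, lower in RIC_hEV by a narrow gap. Taken singly, 0 of the 9 genes separated the groups. Cxcl12, the largest part of the sum, averaged 19.4 ± 2.21 FPKM in RIC_hEV and 22.6 ± 4.72 FPKM in ctr_hEV, overlapping. The lymph node stroma list summed to 2.28 to 5.30 FPKM in RIC_hEV and 3.84 to 8.69 FPKM in ctr_hEV, with Glycam1 at 0 in all 8 libraries and 0 of 3 fitted genes past the threshold.

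T cell receptor V segments, annotated in the same way, overlapped between the groups. Their 170 rows summed to 3.78, 3.78, 4.65 and 6.36 FPKM in RIC_hEV and 3.97, 6.25, 4.57 and 5.14 FPKM in ctr_hEV, and 12 rows reached the floor. T cell marker genes summed to 10.7 to 16.5 FPKM in RIC_hEV and 9 to 15 FPKM in ctr_hEV, with 10 of 10 fitted and 0 past the threshold. Their log2 change was above 0 in 7 and below 0 in 3 (median 0.07), while 28.2% of all genes lay above 0. Cd4 alone separated the groups, at 0.492 ± 0.0441 FPKM in RIC_hEV and 0.355 ± 0.0503 FPKM in ctr_hEV. Hepatocyte genes summed to 29318 to 35190 FPKM in RIC_hEV and 25199 to 37656 FPKM in ctr_hEV, and the log2 change was above 0 in all 6 (median 0.19). Apoa1, an apolipoprotein, averaged 6134 ± 325 FPKM in RIC_hEV and 5211 ± 236 FPKM in ctr_hEV with no overlap. Cps1, a urea cycle enzyme, averaged 893 ± 148 FPKM in RIC_hEV and 712 ± 24.6 FPKM in ctr_hEV, and Hnf4a, a hepatocyte transcription factor, averaged 129.9 ± 14.9 FPKM in RIC_hEV and 106 ± 8.68 FPKM in ctr_hEV, both overlapping. Whether these differences bear on the V sums was not tested. No gene of the hepatocyte list (6 fitted), the Kupffer cell list (5 fitted) or the sinusoidal endothelium list (4 fitted) passed.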

How the data were processed

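RNA was extracted with Trizol and libraries were made with a VAHTS universal kit for Illumina, per the labels' protocols. Tools named by the submitters' processing notes, with no role, are HISAT2 2.2.1, HTSeq 0.13.5, DESeq2 1.18.1, R 3.4.1, Trimmomatic 0.38 and FastQC 0.11.9, with the build mm10. The authors deposited FPKM values, 1 column per library. The sources used here do not give the annotation, gene lengths, strand setting or treatment of multiply mapped reads.

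Of the rows, 3225 without a gene name were left out. Where a symbol stood on several rows, that of highest mean was used, which set aside 80 rows. V rows were matched to GENCODE M21 by symbol (348 of 348). Genes with a mean of at least 0.1 FPKM, 17875 in number, were fitted as log2(FPKM + 1) with limma 3.58.1 in R 4.3.3 (mean-variance trend, two-sided, Benjamini-Hochberg over all genes fitted, threshold 0.05). The pseudocount shrinks the log2 changes of low genes. Single-gene values are means ± SD over 4 libraries per group. Sums, shares and numbers of segments carry no test.

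The worth of 1 fragment is the most common FPKM times kilobases among low genes of a library. V fragments are estimates from it, no count model was used, and they cover counting error only. Shared stretches of 31 bases were searched on both strands of all GENCODE M21 transcripts. The fit was tested on simulated data without counting error, in which only genes averaging at least 1 FPKM were changed. That test does not cover the 96 members that averaged less.

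The members, gene lists and tests were chosen with earlier results of these data known. Members named are the 10 heavy, 10 kappa and 3 lambda segments with the highest mean, those past the threshold, those with the largest changes among segments whose groups do not overlap, the leading segment of each locus in each library, and those next to the floor. Alternatives were the pseudocount, the filter, the scaling, the replicate number as a block and leaving libraries out. Values of some single marker genes are not reported here.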

Additional observations from a re-analysis of the deposited data

Results flagged for a closer look

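In a group of 4, a library was singled out where its gap to the nearest other, divided by the group's range, exceeded Dixon's 95% critical value. Of 92 groups of values tested, 8 (8.70%) were singled out, where the critical value is set for about 5%. The groups of values are not independent, and a group with a single value above 0 is always singled out. These rates therefore cannot be compared strictly.

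Igkv3-4 was 1.58 FPKM in ctr_hEV 3, against 0.276 to 0.472 FPKM in the other ctr_hEV libraries. The leading segment of RIC_hEV 3, also Igkv3-4, took 9.04% of the V sum, against 6.46 to 6.69% for the leading segments of the other RIC_hEV libraries. Ighv1-9 was listed at 0.652 FPKM in ctr_hEV 4 and at 0 in the other ctr_hEV libraries. Ighv7-3 was listed at 0.142 FPKM in RIC_hEV 3 and at 0 in the other RIC_hEV libraries.

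The remaining values concern the lambda locus. Iglv2 was 0.685 FPKM in RIC_hEV 1, against 0 to 0.0704 FPKM in the other RIC_hEV libraries, and Iglv3 was 0.681 FPKM in ctr_hEV 3 and 0 in the other ctr_hEV libraries. In ctr_hEV 1 the lambda share of the V sum was 1.91%, against 4.60 to 4.72% in the other ctr_hEV libraries, and the kappa to lambda ratio was 31.8, against 12 to 12.9. Both values of ctr_hEV 1 rest on the same lambda sum of 0.402 FPKM.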

How the results depend on the processing

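The log2 ratio of the V sums kept its direction under every alternative run: leaving out each library in turn gave 1.14 to 1.44 for all loci, 1.16 to 1.48 for heavy, 1.19 to 1.46 for kappa and 0.28 to 0.78 for lambda. The number of segments above 0 depended on the count. The difference of 17.2 became 6.50 among members averaging at least 0.5 FPKM, 26.8 when counted from 0.5 FPKM and 3.50 at equal fragments (chosen after seeing the data), and 13.1 to 19.1 with each library left out. For segments carrying 90% of the sum, the difference of 7 became 3 among members averaging at least 0.5 FPKM.

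Genes past the threshold numbered 6, but 2 without the filter and 1 to 44 with each library left out, with the 44 coming without ctr_hEV 4. Members past it upward numbered 2, but 3 with a pseudocount of 0.1 (Ighv1-85 in addition), 1 with a filter of 1 FPKM (which keeps 15 members and not Igkv10-94), 1 with median centring, 0 without the filter (29 members at an unadjusted limma p under 0.05), 1 without ctr_hEV 1 and 3, and 0 to 3 with each library left out. Without the filter the adjusted p was 0.195 for Igkv3-4 and 0.177 for Igkv10-94, and with median centring that of Igkv10-94 was 0.0514. Over the scalings and pseudocounts tried the adjusted p of Igkv3-4 was 0.0264 to 0.0416, and with the filter of 1 FPKM it was 0.0152. Median centring moved the median log2 change of all genes to 0.04 from -0.09.

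Same-numbered libraries did not deviate together (correlations of 0.04, 0.10, -0.005 and -0.19), and none of the 4 RIC_hEV libraries matched its own number best. With the replicate number as a block, 2 genes and 1 member passed, Igkv3-4 (adjusted p = 0.00896), and Igkv10-94 had 0.216.

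Small log2 changes that did not pass changed sign. Without RIC_hEV 4, Ighv1-26 was at -0.027, Ighv1-81 at -0.064 and Igkv10-96 at -0.071, and with each library left out they reached 0.42, 0.27 and 0.53. Without ctr_hEV 1 and 3, Ighv1-50 was at 0.10, Ighv1-81 at -0.11, Ighv5-4 at -0.21 and Igkv6-29 at -0.034. Ighv5-4 ran from -0.013 (without ctr_hEV 1) to 0.32 with each library left out. Iglv2 was at 0.061 with median centring, at 0.0076 without RIC_hEV 2 or 3, at 0.0050 without ctr_hEV 3 and at -0.24 without RIC_hEV 1. The cause of these shifts was not tested. Depth limits single segments: the median member rested on an estimated 2.95 to 4.91 fragments per library in RIC_hEV and 0.945 to 2.06 in ctr_hEV.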
